A study of Homo sapiens with 24 samples.

Results

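Expression was compared between the response of SJSA-1 cells to 50 nM THZ531 and the response of U2-OS cells to 800 nM THZ531, a pair of doses selected on the likeness of the responses themselves. A response is the change against DMSO after 6 h, and a positive difference means a higher change in SJSA-1. Of the 18132 genes on the array, 5851 were active in both untreated lines, which means that the DMSO arrays of each line averaged more than log2(100), or 6.64, in log2 intensity. ALG14 lay just inside this limit, with 7.47 in SJSA-1 and 6.65 in U2-OS, and HOXC9 just outside it, with 6.64 and 6.98 (log2 intensity). SJSA-1 and U2-OS are established human osteosarcoma cell lines. Each of the 4 groups, SJSA-1 with 50 nM THZ531, SJSA-1 with DMSO, U2-OS with 800 nM THZ531 and U2-OS with DMSO, held 3 of the 24 Affymetrix PrimeView arrays of the series, and the other 12 arrays carried the remaining doses. All 4 groups received fresh complete medium with compound or solvent 1 day after plating, and the labels leave unsaid whether the replicates are separate cultures. The p-values therefore rest on array-to-array spread alone, part or all of which may be technical.

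THZ531 binds covalently to CDK12 and CDK13, kinases that pair with cyclin K and phosphorylate the C-terminal domain of RNA polymerase II during elongation. CDK12 is known for keeping polymerase from ending transcripts early at polyadenylation signals inside introns, and loss of its activity is known to lower long genes and genes of homologous recombination. The compound was used in this study as a probe of transcription that depends on super-enhancers, large clusters of enhancers that drive genes of cell identity.

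The arrays of a group were alike, with the lowest Pearson r within any of the 4 groups between 0.993 and 0.997 and a median SD of 0.05 to 0.07 on the log2 scale. Of 12 osteoblast markers 0 lay above the limit in SJSA-1 and 4 in U2-OS, and of 14 markers of leukocytes and endothelium 0 in either line. Of 17 markers of neurons and glia, looked at because the extraction text of the labels speaks of brain tissue, TUBB3 lay above it in SJSA-1 and TUBB3 and NEFL in U2-OS. All changes are relative to the whole distribution of an array. The 24 probe sets of the poly-A controls, added to the RNA before labelling, rose by 0.51 in SJSA-1 and by 0.94 in U2-OS with the compound, and the 18 probe sets of the hybridization controls changed by 0.22 in SJSA-1 and by -0.06 in U2-OS. Scaling arrays to the poly-A controls would therefore subtract 0.51 from every SJSA-1 change and 0.94 from every U2-OS change, and would add 0.43 to every difference. Scaling to the hybridization controls would subtract 0.28 from every difference. In bulk RNA, a lower level in each cell and fewer cells with the transcript cannot be told apart.

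At the matched doses the lines changed largely the same genes in the same direction. At an adjusted p of 0.05 by limma, 2259 genes fell (38.6% of 5851) and 1580 rose (27%) in SJSA-1 with 50 nM, and 2159 fell (36.9%) and 1638 rose (28%) in U2-OS with 800 nM. Both lines shared 1608 falls, 71.2% of those of SJSA-1 and 74.5% of those of U2-OS. They shared 1026 rises, 64.9% and 62.6% of each line's own. In opposite directions, 150 genes were lower in SJSA-1 and higher in U2-OS, and 75 were higher in SJSA-1 and lower in U2-OS. A further 980 genes passed the test in SJSA-1 alone, 938 in U2-OS alone and 1074 in neither.

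The difference itself was tested for every gene. It passed for 2176 genes (37.2%), of which 801 were higher (13.7%) and 1375 lower (23.5%) in SJSA-1 with 50 nM than in U2-OS with 800 nM. Of the called differences 36.8% were higher, a share that scaling to the poly-A controls moved to 97.1%, scaling to the hybridization controls to 1.74%, scaling to both to 53.4%, and averaging all probe sets of a gene to 47.3%. Most of these differences were small. A size of at least 2-fold was reached by 6 higher and 39 lower genes. The 95% interval of the difference stayed within 1.5-fold in either direction for 4799 genes (82%), and its median half-width was 0.18 on the log2 scale. Among shared falls the difference passed for 560 genes, with the deeper fall in SJSA-1 for 409 and in U2-OS for 151. Among shared rises it passed for 329 genes, with the larger rise in SJSA-1 for 116 and in U2-OS for 213.

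**Figure D1:**
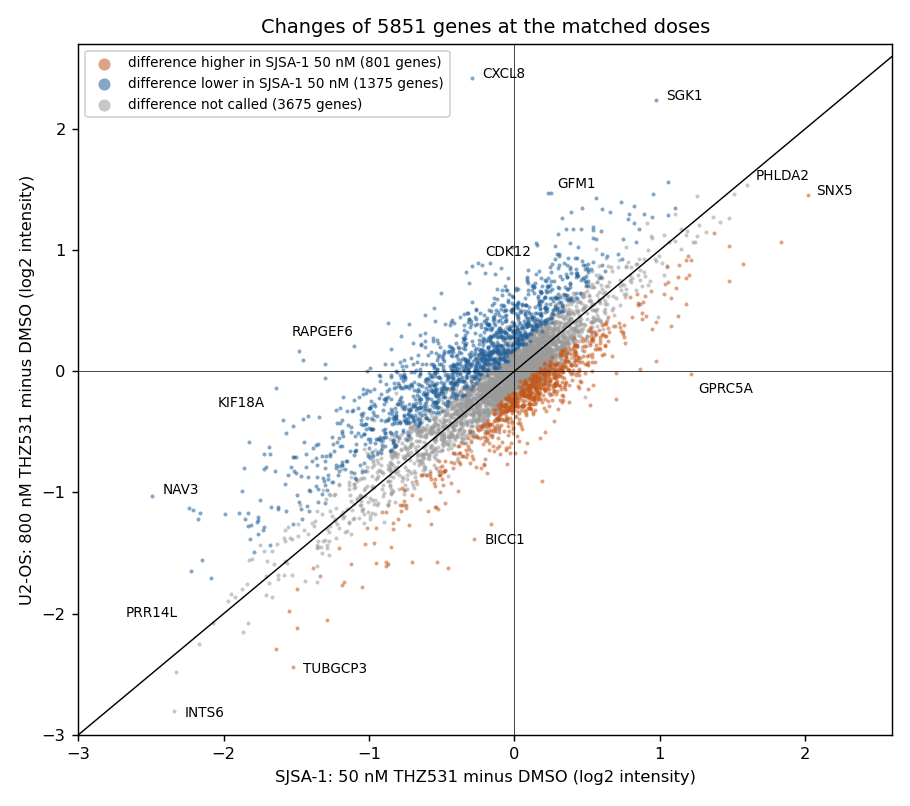
Change of each of the 5851 genes with THZ531 against DMSO on the log2 scale, in SJSA-1 at 50 nM (x axis) and in U2-OS at 800 nM (y axis), means of 3 arrays per group. Orange and blue mark the 801 higher and 1375 lower genes by the test of the difference, and the line marks equal changes.

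Across the 9 pairs of doses, the Pearson correlation of the changes over the 5851 genes was 0.80 for SJSA-1 50 nM with U2-OS 800 nM, 0.64 for SJSA-1 50 nM with U2-OS 200 nM, and between -0.05 and 0.47 in the other 7 pairs. These are descriptions over genes, which are not independent replicates, and pairs in a row or column share arrays. At the same nominal dose in both lines the difference passed for 3115 genes (53.2%) at 50 nM, 3740 genes (63.9%) at 200 nM and 3891 genes (66.5%) at 800 nM. It reached 2-fold in 45 genes at the matched doses, against 338, 609 and 676 genes at these same doses. The median absolute difference was 0.17 at the matched doses, against 0.22 at 50 nM, 0.29 at 200 nM and 0.31 at 800 nM. Because the matched pair was selected on its likeness, its place among the 9 pairs follows from that choice. These comparisons are a description of it.

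**Figure D2:**
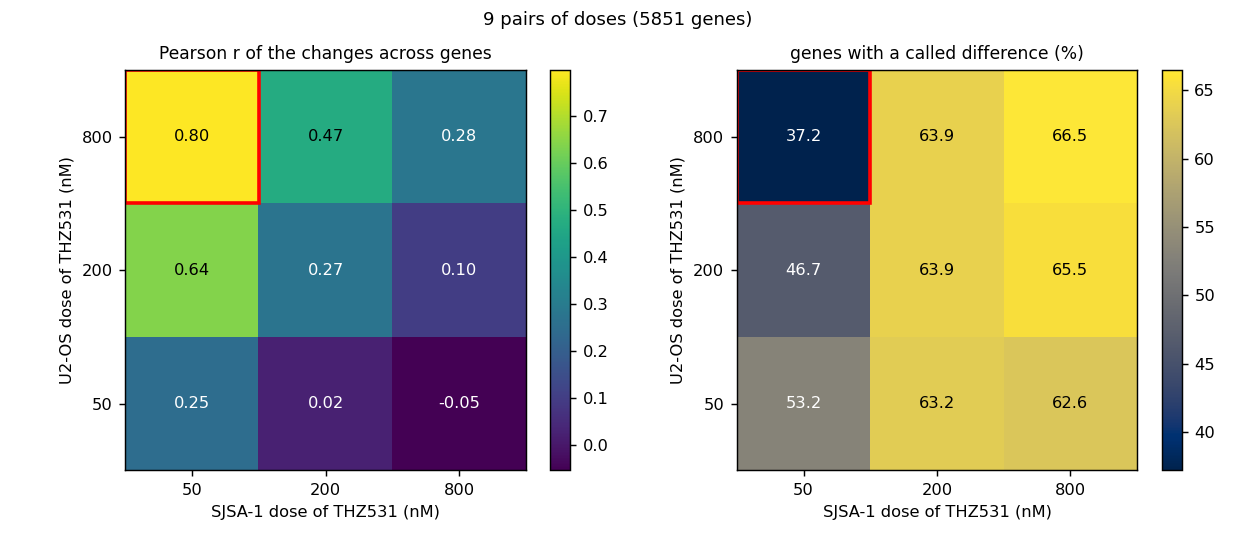
Pearson r of the changes over 5851 genes (left) and percent of genes with a called difference (right) for each dose of THZ531 in SJSA-1 (columns, nM) and in U2-OS (rows, nM). The red frame marks SJSA-1 50 nM with U2-OS 800 nM, the pair selected on its likeness, with an r of 0.80 and 37.2% of genes called.

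The deepest shared falls, ranked by the smaller of the changes, are given first. INTS6, a subunit of the Integrator complex that cleaves nascent RNA (chromosome 13, 51334405 to 51453036, GRCh38.p14), had log2 intensities of 5.73, 5.79 and 5.58 in SJSA-1 with 50 nM, against 7.94, 8.02 and 8.16 with DMSO. In U2-OS it had 4.05, 3.90 and 4.35 with 800 nM, against 6.90, 6.85 and 6.95 with DMSO. No treated array overlapped a DMSO array of its line. INTS6 thus fell, with changes of -2.34 ± 0.165 in SJSA-1 and -2.80 ± 0.165 in U2-OS (SE, n = 3 each), and the difference of 0.46 (95% interval -0.02 to 0.94) did not pass, with an adjusted p of 0.127 by limma. It passed in the fit of the 12 arrays alone, with an adjusted p of 0.0149.

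PRR14L, a gene of cell division, had 5.81, 5.74 and 5.72 in SJSA-1 with 50 nM, against 7.78, 7.76 and 7.96 with DMSO. In U2-OS it had 5.54, 5.42 and 5.52 with 800 nM, against 7.63, 7.45 and 7.64 with DMSO. Treated and DMSO arrays stood apart in each line, and PRR14L fell (-2.08 in SJSA-1 and -2.08 in U2-OS). NRP1, a co-receptor for semaphorins and vascular endothelial growth factor, had 4.83, 4.83 and 4.73 in SJSA-1 with 50 nM, against 6.54, 6.76 and 6.85 with DMSO, and 5.36, 5.40 and 5.52 in U2-OS with 800 nM, against 7.17, 7.29 and 7.40 with DMSO. NRP1 fell (-1.92 in SJSA-1 and -1.86 in U2-OS). In SJSA-1 its change was -0.46 at 200 nM and 0.20 at 800 nM, so that the fall was deepest at the lowest dose there.

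Other deep shared falls chosen in the same way follow. DHX32, an RNA helicase of the DEAH family, fell (-2.33 in SJSA-1 and -2.48 in U2-OS). FLRT2, a cell surface guidance protein, fell (-2.17 in SJSA-1 and -2.25 in U2-OS). CASP8AP2, which takes part in histone gene expression and apoptosis, fell (-1.97 in SJSA-1 and -1.90 in U2-OS). TERF2, a protein of the telomere cap, fell (-1.84 in SJSA-1 and -1.76 in U2-OS), and NCOA6, a coactivator of nuclear receptors, fell (-1.71 in SJSA-1 and -1.84 in U2-OS). Of the 12 genes of this kind, 10 had a difference bounded within 1.5-fold, against 82% over all genes. The difference passed for 0 of them by limma, against 37.2% over all genes. The ranking asks for a large change in both lines, so these counts are a description. Each of the 12 rests on 1 active probe set.

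Genes of homologous recombination, Fanconi anaemia and checkpoints fell more often than they rose in both lines. Of 18 active genes 14 fell and 0 rose in SJSA-1, and 11 fell and 2 rose in U2-OS, with 10 shared falls. These falls made up 77.8% of the list in SJSA-1 and 61.1% in U2-OS, against 38.6% and 36.9% over all genes. The median change was -0.53 in SJSA-1 and -0.44 in U2-OS, against -0.04 and -0.03 over all genes. The size in U2-OS depended on the filter. With DMSO means above 200 the medians were -0.39 in SJSA-1 and -0.07 in U2-OS (9 genes). With the mean of 24 arrays above 100 they were -0.385 and -0.17 (14 genes). The mean of all probe sets gave -0.24 and -0.28 (13 genes). BRCA1, which acts in repair of double-strand breaks, had 6.00, 5.91 and 5.99 in SJSA-1 with 50 nM, against 7.02, 7.16 and 7.05 with DMSO, and 5.67, 5.63 and 5.71 in U2-OS with 800 nM, against 7.16, 6.91 and 6.61 with DMSO. BRCA1 fell (-1.11 in SJSA-1 and -1.22 in U2-OS), with no overlap in either line. Its partner BARD1 fell (-1.31 in SJSA-1 and -1.40 in U2-OS), and the helicase BLM fell (-1.42 in SJSA-1 and -1.34 in U2-OS). The difference passed for 6 of the 18 genes (33.3%, against 37.2% over all genes), among them the exonuclease EXO1 (-1.18 in SJSA-1, -0.49 in U2-OS), the kinase CHEK1 (0.01 in SJSA-1, 0.48 in U2-OS) and NBN, of the MRN complex that senses breaks (-0.52 in SJSA-1, 0.12 in U2-OS).

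Of 46 active genes of DNA replication and G1/S, 23 fell (50.0%, against 38.6% over all genes) and 7 rose in SJSA-1, and 27 fell (58.7%, against 36.9%) and 8 rose in U2-OS, with 21 shared falls. The difference passed for 21 of the 46 (45.7%, against 37.2%) and was bounded within 1.5-fold for 39 (84.8%, against 82%). CDC7, the kinase that fires replication origins, fell (-1.35 in SJSA-1 and -1.40 in U2-OS). GINS1, a subunit of the replicative helicase, fell (-1.33 in SJSA-1 and -1.50 in U2-OS). MCM10, which loads onto origins before unwinding, differed more between the lines than these. It fell (-1.04 in SJSA-1 and -0.15 in U2-OS), a difference of -0.89 with an adjusted p of 4.46e-08 by limma.

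The largest shared rises were ranked in the same way. PHLDA2, an imprinted gene of growth control (chromosome 11, 2928273 to 2929420), had 9.66, 9.80 and 9.62 in SJSA-1 with 50 nM, against 8.01, 8.11 and 8.16 with DMSO. In U2-OS it had 8.83, 8.74 and 8.64 with 800 nM, against 7.29, 7.15 and 7.15 with DMSO. All treated arrays lay above all DMSO arrays of their line. PHLDA2 rose by 1.60 ± 0.06 in SJSA-1 and by 1.54 ± 0.06 in U2-OS (SE, n = 3 each), with a difference of 0.06 (95% interval -0.13 to 0.25). PRKAA1, a catalytic subunit of the energy sensor AMPK, had 8.92, 8.90 and 8.93 in SJSA-1 with 50 nM, against 7.44, 7.31 and 7.47 with DMSO, and 8.77, 8.70 and 8.76 in U2-OS with 800 nM, against 7.27, 7.35 and 7.23 with DMSO. The difference of PRKAA1 was 0.05 (95% interval -0.13 to 0.23).

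CITED2, a coregulator that binds CBP and p300, rose by 1.47 in SJSA-1 and 1.27 in U2-OS. OSMR, the receptor subunit for oncostatin M, rose by 1.19 in SJSA-1 and 1.15 in U2-OS, and MSL2, a ubiquitin ligase of a histone acetylation complex, by 1.27 in SJSA-1 and 1.21 in U2-OS. RBM14, a coactivator that binds RNA, rose by 1.14 in SJSA-1 and 1.17 in U2-OS. SNX5, a sorting nexin of endosomes, rose by 2.02 in SJSA-1 and 1.45 in U2-OS on 1 of its 3 active probe sets. The other 2 probe sets of SNX5 gave -0.59 and -0.13 in SJSA-1 and -0.53 and -0.18 in U2-OS, so that the shared rise rests on 1 probe set. Of the 12 largest shared rises, 11 had a difference bounded within 1.5-fold, against 82% over all genes. The difference passed for 2 of them by limma, against 37.2% over all genes. The ranking asks for a large change in both lines, so these counts are a description.

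Immediate-early genes, which respond to stimuli without new protein, rose in both lines. Of 24 active genes 19 rose and 2 fell in SJSA-1, and 21 rose and 3 fell in U2-OS, with 18 shared rises. Rises made up 79.2% of the list in SJSA-1 and 87.5% in U2-OS, against 27% and 28% over all genes. The median change was 0.54 in SJSA-1 and 0.64 in U2-OS, which becomes -0.30 in U2-OS under scaling to the poly-A controls. JUNB, a subunit of the transcription factor AP-1, rose by 1.13 in SJSA-1 and 0.87 in U2-OS, and JUN, another AP-1 subunit, by 0.46 in SJSA-1 and 0.50 in U2-OS. BTG1, which slows proliferation, rose by 1.11 in SJSA-1 and 1.29 in U2-OS, IER5 by 1.03 in SJSA-1 and 1.12 in U2-OS, and TRIB1, a pseudokinase, by 1.37 in SJSA-1 and 1.14 in U2-OS. The difference passed for 14 of the 24 (58.3%, against 37.2% over all genes), 6 higher and 8 lower. FOSL2, another AP-1 subunit, fell (-0.93 in SJSA-1 and -0.22 in U2-OS), and its fall in U2-OS did not pass by limma without U2-OS 800 nM replicate 2 (-0.20, adjusted p 0.0723) or DMSO replicate 1 (-0.13, adjusted p 0.165).

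The kinases and factors that drive elongation did not move as one. Of 33 active genes 13 rose and 11 fell in SJSA-1 (39.4% and 33.3%, against 27% and 38.6% over all genes), and 15 rose and 10 fell in U2-OS (45.5% and 30.3%, against 28% and 36.9%). The difference was higher for 5 and lower for 11 (48.5% in all, against 37.2%). CDK12, a target of THZ531, had 7.22, 7.23 and 7.11 in SJSA-1 with 50 nM, against 7.46, 7.33 and 7.52 with DMSO, and 7.75, 7.54 and 7.65 in U2-OS with 800 nM, against 6.65, 6.71 and 6.91 with DMSO. CDK12 fell by 0.25 in SJSA-1 and rose by 0.89 in U2-OS, and its treated arrays lay on opposite sides of the DMSO arrays in the 2 lines. The difference of CDK12 was -1.14 (95% interval -1.39 to -0.89, adjusted p 3.48e-07 by limma). At the other doses its change stayed below 0 in SJSA-1, with -0.99 at 200 nM and -1.27 at 800 nM, and above 0 in U2-OS, with 0.42 at 50 nM and 0.90 at 200 nM.

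CCNK, which encodes cyclin K, rose by 0.44 in SJSA-1 and 0.38 in U2-OS, with a difference within 1.5-fold. CDK13 was not active in both lines and was not tested. CDK7, of the initiation factor TFIIH, rose by 0.11 in SJSA-1 and 0.47 in U2-OS. CDK9, of the elongation factor P-TEFb, fell (-0.62 in SJSA-1 and -0.19 in U2-OS), and its fall in U2-OS did not pass by limma without U2-OS 800 nM replicate 2 (-0.16, adjusted p 0.068) or DMSO replicate 3 (-0.14, adjusted p 0.0829). HEXIM1, which holds P-TEFb inactive, had 9.45, 9.22 and 9.30 in SJSA-1 with 50 nM, against 8.14, 8.12 and 8.17 with DMSO, and 9.59, 9.84 and 9.70 in U2-OS with 800 nM, against 8.88, 8.93 and 9.01 with DMSO. HEXIM1 rose by 1.18 in SJSA-1 and by 0.77 in U2-OS, and its 3 active probe sets gave differences between 0.18 and 1.25. The bromodomain genes BRD2 and BRD3, readers of acetylated histones, moved in opposite directions, each the same way in both lines. BRD2 rose by 1.24 in SJSA-1 and 1.07 in U2-OS, and BRD3 fell (-1.21 in SJSA-1 and -1.46 in U2-OS), with a difference of 0.25 at an adjusted p of 0.0499 by limma. ELL2, of the super elongation complex, changed by -0.05 in SJSA-1, which did not pass, and rose by 0.77 in U2-OS. CTR9, of the PAF1 complex, rose by 0.28 in SJSA-1 and 0.93 in U2-OS.

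Of 39 active genes of Mediator, TFIID and RNA polymerase II, 16 fell and 8 rose in SJSA-1. These were 41% and 20.5%, against 38.6% and 27% over all genes. In U2-OS 18 fell and 10 rose (46.2% and 25.6%, against 36.9% and 28%). The difference was higher for 6 and lower for 11 of the 39 (43.6% in all, against 37.2% over all genes). MED13, of the kinase module of Mediator, fell (-1.72 in SJSA-1 and -0.68 in U2-OS). MED23, of the Mediator tail, changed by -0.17 in SJSA-1, which did not pass, and rose by 0.89 in U2-OS, a difference of -1.06. MED26, the subunit that docks elongation factors, rose by 1.23 in SJSA-1 and 1.06 in U2-OS. In Integrator and 3-prime end formation, 13 of 28 genes fell and 10 rose in SJSA-1 (46.4% and 35.7%, against 38.6% and 27%). In U2-OS 14 fell and 9 rose (50% and 32.1%, against 36.9% and 28%), and all 13 falls of SJSA-1 were shared. The difference passed for 12 of the 28 (42.9%, against 37.2%). INTS7 fell (-1.27 in SJSA-1 and -1.01 in U2-OS). SCAF8, which limits early polyadenylation, rose by 0.46 in SJSA-1 and 1.35 in U2-OS. CSTF3, of the cleavage stimulation factor, rose by 0.52 in SJSA-1 and fell by 0.28 in U2-OS, and 3 of its 4 active probe sets moved so. The fourth fell (-2.81 in SJSA-1 and -3.50 in U2-OS), and the differences of CSTF3 lay between 0.69 and 0.96 over the 4.

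The largest difference of all 5851 genes was that of CXCL8, the chemokine interleukin-8 (chromosome 4, 73740569 to 73743716). It had log2 intensities of 11.62, 11.54 and 11.69 in SJSA-1 with 50 nM, against 11.88, 11.87 and 11.98 with DMSO. In U2-OS it had 9.64, 9.66 and 9.58 with 800 nM, against 7.28, 7.37 and 6.98 with DMSO. The treated arrays lay below DMSO in SJSA-1 and above it in U2-OS, and every SJSA-1 array lay above every U2-OS array. CXCL8 fell by 0.29 ± 0.08 in SJSA-1, with an adjusted p of 0.00273, and rose by 2.42 ± 0.08 in U2-OS (SE, n = 3 each, limma), 5.34-fold. The difference was -2.71 (95% interval -2.94 to -2.48, adjusted p 7.49e-13). In U2-OS the change was 1.24 at 50 nM and 1.39 at 200 nM, and in SJSA-1 it was 0.09 at 200 nM and 0.12 at 800 nM.

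CXCL8 belongs to 12 active genes of chemokines and NF-kB feedback. NF-kB is a family of transcription factors held in the cytoplasm by inhibitors such as the product of NFKBIA, and it raises its own inhibitors when active. Of the 12 genes, 2 rose and 8 fell in SJSA-1 (16.7% and 66.7%, against 27% and 38.6% over all genes). In U2-OS 6 rose and 3 fell (50% and 25%, against 28% and 36.9%). The difference was lower in SJSA-1 for 10 (83.3%, against 23.5%) and higher for 0. The median change was -0.30 in SJSA-1 and 0.36 in U2-OS. Under scaling to the poly-A controls the median in U2-OS becomes -0.58 and the median difference of -0.40 becomes 0.04. NFKB1, which encodes the p105 and p50 proteins, had 8.06, 8.05 and 8.03 in SJSA-1 with 50 nM, against 8.50, 8.55 and 8.61 with DMSO, and 8.58, 8.53 and 8.57 in U2-OS with 800 nM, against 7.91, 7.84 and 8.0 with DMSO. NFKB1 fell by 0.51 in SJSA-1 and rose by 0.64 in U2-OS, and no treated array overlapped a DMSO array of its line. NFKBIA had 9.15, 9.22 and 9.18 in SJSA-1 with 50 nM, against 9.26, 9.24 and 9.32 with DMSO, and 9.54, 9.45 and 9.29 in U2-OS with 800 nM, against 8.49, 8.53 and 8.70 with DMSO. Its change of -0.09 in SJSA-1 did not pass, its rise of 0.85 in U2-OS did, and its 3 active probe sets gave differences between -1.05 and -0.94.

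The promoters of this list were read because the letters that NF-kB proteins are known to bind can be shown beside the differences. RefSeq windows of 250 bases before and 50 after the annotated start (GRCh38.p14) matched 4997 of the 5851 active genes and 9 of the 12 genes of the list. The motif GGANTTTCC, searched on both strands, lay in 4 of these 9 windows and in 1.64% of all 27305 windows (449 of them), and it also lay in 1.64% of those of active genes. TGACTCA, the AP-1 motif, lay in 1 of the 9, in 4.92% of all windows and in 2.7% of those of active genes. The 4 windows with GGANTTTCC are given 5-prime to 3-prime on the strand of the gene, with both motifs in capitals, which do not overlap here.
CXCL8, chr4:73740319-73740618, plus strand: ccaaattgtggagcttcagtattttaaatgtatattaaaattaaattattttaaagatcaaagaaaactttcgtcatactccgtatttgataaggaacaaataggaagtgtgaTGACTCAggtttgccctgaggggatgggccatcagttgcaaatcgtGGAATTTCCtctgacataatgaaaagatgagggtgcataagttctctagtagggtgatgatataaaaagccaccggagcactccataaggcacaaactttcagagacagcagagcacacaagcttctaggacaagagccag
NFKB1, chr4:102501109-102501408, plus strand: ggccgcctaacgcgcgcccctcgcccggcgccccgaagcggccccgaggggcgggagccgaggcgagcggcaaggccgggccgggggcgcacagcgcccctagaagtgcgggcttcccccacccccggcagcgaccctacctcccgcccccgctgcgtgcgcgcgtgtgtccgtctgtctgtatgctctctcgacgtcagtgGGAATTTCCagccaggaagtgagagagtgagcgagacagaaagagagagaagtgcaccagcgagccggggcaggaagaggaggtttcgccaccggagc
NFKBIA, chr14:35404700-35404999, minus strand: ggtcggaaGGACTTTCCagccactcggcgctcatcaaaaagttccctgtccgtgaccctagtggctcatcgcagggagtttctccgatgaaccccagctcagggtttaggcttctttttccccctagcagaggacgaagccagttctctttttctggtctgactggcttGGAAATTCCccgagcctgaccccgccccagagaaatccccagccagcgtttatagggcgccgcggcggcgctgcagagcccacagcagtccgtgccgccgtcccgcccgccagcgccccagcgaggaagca
NFKBIZ, chr3:101827740-101828039, plus strand: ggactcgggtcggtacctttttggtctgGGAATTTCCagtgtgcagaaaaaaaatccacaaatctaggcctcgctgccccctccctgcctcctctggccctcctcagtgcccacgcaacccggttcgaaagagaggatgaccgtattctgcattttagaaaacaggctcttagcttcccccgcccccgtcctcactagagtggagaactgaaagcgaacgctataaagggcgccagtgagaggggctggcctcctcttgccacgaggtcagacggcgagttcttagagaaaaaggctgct
In CXCL8 the GGANTTTCC match began 91 bases before the start and the TGACTCA match 137 bases before it. In NFKB1 the match began 48 bases before the start, in NFKBIZ 222, and in NFKBIA 242 and 81. The 4 genes had the lowest differences of the 12, from -2.71 to -0.91, with NFKBIZ, an atypical inhibitor named here only after its values were seen, at -0.91. The 5 other matched genes lay between -0.47 and -0.08 and the 3 genes with no matched window between -0.31 and -0.26. Among all genes with a lower difference, 1.94% of windows held GGANTTTCC, against 1.64% of active genes. A match describes letters in a window and is not a measured site. The list was drawn up around NF-kB and chosen with earlier results of these data known, so its matches and their order are a description. Whether the motif bears on the differences was not tested.

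**Figure D3:**
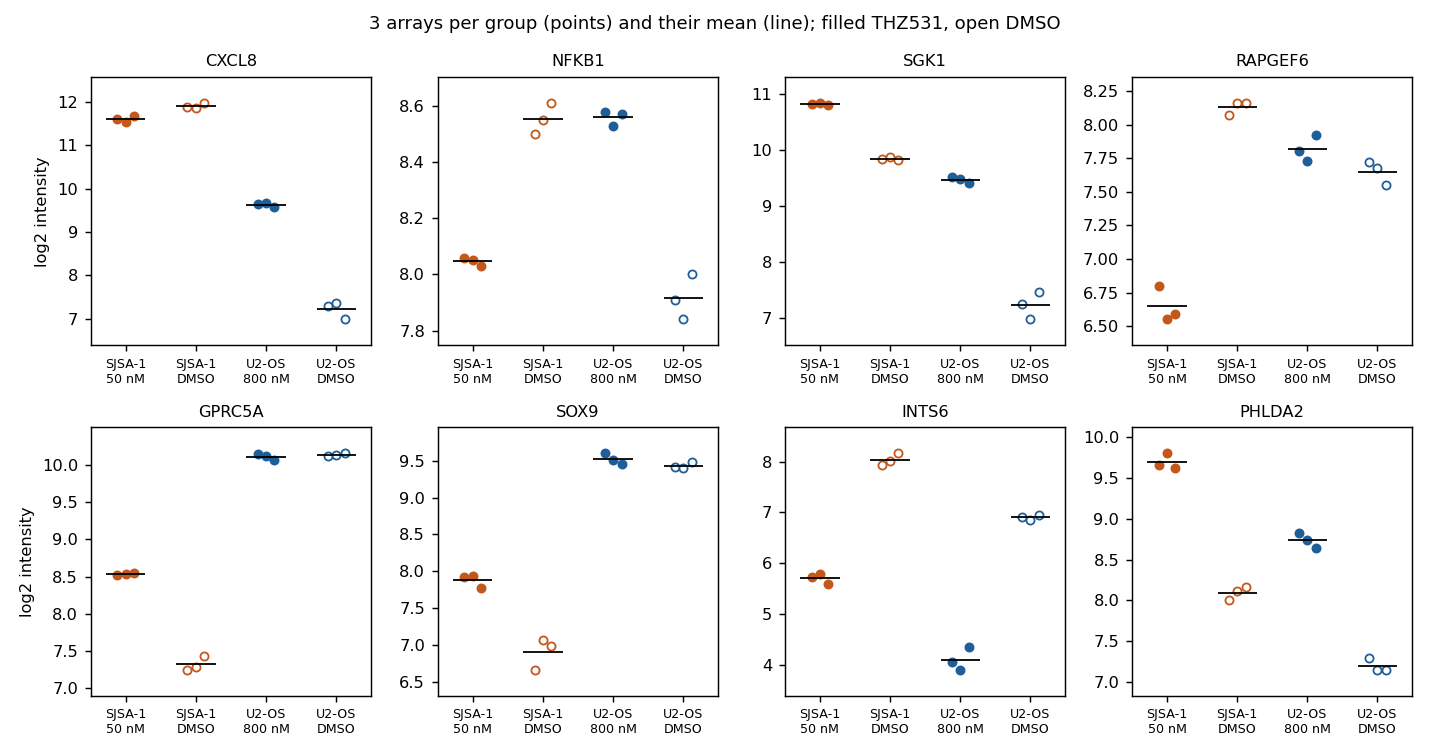
Log2 intensity of 8 genes on each of the 3 arrays (points) and their mean (line), with filled points for THZ531 and open points for DMSO, in SJSA-1 (orange, 50 nM) and U2-OS (blue, 800 nM). CXCL8 and NFKB1 moved in opposite directions, SGK1 rose more in U2-OS, RAPGEF6 fell in SJSA-1, and GPRC5A and SOX9 rose in SJSA-1. INTS6 fell and PHLDA2 rose in both lines.

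Other genes rose in both lines but less in SJSA-1. SGK1, a kinase that responds to serum and glucocorticoids, had 10.82, 10.83 and 10.79 in SJSA-1 with 50 nM, against 9.83, 9.87 and 9.82 with DMSO, and 9.52, 9.48 and 9.41 in U2-OS with 800 nM, against 7.25, 6.98 and 7.46 with DMSO. SGK1 rose by 0.97 in SJSA-1 and by 2.24 in U2-OS, and the difference of -1.27 had an adjusted p of 8.46e-08 by limma. KLF6, an immediate-early zinc finger factor, rose by 0.40 in SJSA-1 and 1.18 in U2-OS. GFM1, an elongation factor of mitochondrial translation, had 9.63, 9.65 and 9.77 in SJSA-1 with 50 nM, against 9.42, 9.49 and 9.44 with DMSO, and 8.69, 8.65 and 8.69 in U2-OS with 800 nM, against 7.16, 7.31 and 7.15 with DMSO. GFM1 rose by 0.23 in SJSA-1 and 1.47 in U2-OS. In each of these genes the treated and DMSO arrays did not overlap within a line, and the DMSO level was higher in SJSA-1.

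A second set fell in SJSA-1 and hardly moved in U2-OS. RAPGEF6, an exchange factor for the GTPase RAP1 (chromosome 5, 131423921 to 131635229), had 6.80, 6.55 and 6.59 in SJSA-1 with 50 nM, against 8.07, 8.16 and 8.16 with DMSO, and 7.80, 7.73 and 7.92 in U2-OS with 800 nM, against 7.72, 7.68 and 7.55 with DMSO. RAPGEF6 fell by 1.48 in SJSA-1, and its change of 0.17 in U2-OS did not pass, with an adjusted p of 0.20 by limma. KIF18A, a kinesin that damps chromosome movement in mitosis, had 6.36, 6.35 and 6.32 in SJSA-1 with 50 nM, against 7.97, 8.09 and 7.90 with DMSO, and 7.30, 7.22 and 7.37 in U2-OS with 800 nM, against 7.57, 7.42 and 7.31 with DMSO. KIF18A fell by 1.64 in SJSA-1, and its groups overlapped in U2-OS, where the change was -0.14. BDP1, a subunit of the initiation factor of RNA polymerase III, fell by 1.45 in SJSA-1 and changed by 0.09 in U2-OS. ARID4B, of a histone deacetylase complex, fell by 1.30 in SJSA-1 and changed by 0.06 in U2-OS, and CEP170, a protein of the centrosome, fell by 1.30 in SJSA-1 and changed by -0.06 in U2-OS. None of these 3 changes in U2-OS passed the test. WDR36, a nucleolar protein of ribosome assembly, fell by 1.11 in SJSA-1 and rose by 0.21 in U2-OS. The other 2 active probe sets of WDR36 disagreed in direction, with 0.53 and -1.42 in SJSA-1 and 0.92 and -0.29 in U2-OS, and the difference lay below 0 on all 3. RAPGEF6, KIF18A, BDP1, ARID4B, CEP170 and WDR36 all had a higher DMSO level in SJSA-1 than in U2-OS.

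NAV3, a protein of microtubule ends (chromosome 12, 77571862 to 78213010), fell in both lines and more in SJSA-1. It had 6.60, 6.46 and 6.35 in SJSA-1 with 50 nM, against 9.0, 8.92 and 8.97 with DMSO, and 5.49, 5.69 and 5.71 in U2-OS with 800 nM, against 6.68, 6.64 and 6.66 with DMSO. NAV3 fell 5.63-fold in SJSA-1, with a change of -2.49, and 2.04-fold in U2-OS, with a change of -1.03. Its difference of -1.46 had a 95% interval of -1.68 to -1.25. The DMSO mean of NAV3 was 8.96 in SJSA-1 but 6.66 in U2-OS, just above the limit of 6.64. Whether the low level in U2-OS held back its fall there was not tested.

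On the deposited scale, differences in which SJSA-1 stood higher were fewer and smaller. Scaling to the poly-A controls gave 1322 higher and 39 lower differences instead. GPRC5A, an orphan receptor that retinoic acid induces, had 8.52, 8.54 and 8.55 in SJSA-1 with 50 nM, against 7.25, 7.29 and 7.43 with DMSO, and 10.14, 10.12 and 10.06 in U2-OS with 800 nM, against 10.12, 10.13 and 10.15 with DMSO. GPRC5A rose by 1.21 in SJSA-1, 2.32-fold, and its change of -0.03 in U2-OS did not pass, with a difference of 1.24 (95% interval 1.11 to 1.37). SOX9, a transcription factor of cartilage, had 7.92, 7.94 and 7.77 in SJSA-1 with 50 nM, against 6.66, 7.07 and 6.98 with DMSO, and 9.60, 9.51 and 9.45 in U2-OS with 800 nM, against 9.41, 9.40 and 9.49 with DMSO. SOX9 rose by 0.97 in SJSA-1, and its groups overlapped in U2-OS. H1-10, a linker histone, rose by 0.87 in SJSA-1 and changed by 0.02 in U2-OS, which did not pass. GPRC5A, SOX9 and H1-10 all had their lowest levels in the SJSA-1 DMSO arrays.

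Other genes stood higher in SJSA-1 through a deeper fall in U2-OS. BICC1, an RNA-binding protein, had 6.46, 6.49 and 6.64 in SJSA-1 with 50 nM, against 6.84, 6.81 and 6.77 with DMSO, and 5.64, 5.33 and 5.47 in U2-OS with 800 nM, against 6.79, 6.85 and 6.95 with DMSO. BICC1 fell (-0.28 in SJSA-1 and -1.38 in U2-OS). SLC6A6, the taurine transporter, fell (-0.53 in SJSA-1 and -1.58 in U2-OS), and SLC26A2, a sulphate transporter needed for cartilage, fell (-0.71 in SJSA-1 and -1.57 in U2-OS). TUBGCP3, of the complex that nucleates microtubules, fell (-1.52 in SJSA-1 and -2.44 in U2-OS). BRI3BP rose by 0.19 in SJSA-1 and fell by 0.91 in U2-OS, and NIPA1, a magnesium transporter, rose by 0.70 in SJSA-1 and fell by 0.23 in U2-OS. The other active probe set of NIPA1 gave -0.63 in SJSA-1 and -0.75 in U2-OS, so that its rise and its difference of 0.93 rest on 1 of 2.

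The 10 clearest genes of opposite direction were all lower in SJSA-1 with 50 nM and higher in U2-OS with 800 nM. NR3C1, the glucocorticoid receptor, had 8.28, 8.19 and 8.31 in SJSA-1 with 50 nM, against 8.71, 8.83 and 8.91 with DMSO, and 8.33, 8.26 and 8.36 in U2-OS with 800 nM, against 7.77, 7.82 and 7.80 with DMSO. NR3C1 fell by 0.56 in SJSA-1 and rose by 0.52 in U2-OS, with no overlap in either line. Its other active probe set was above DMSO in both lines, by 0.25 in SJSA-1 and 0.67 in U2-OS, so that the opposite direction of NR3C1 rests on 1 of 2 probe sets. CHD7, a chromatin remodeller, had 7.53, 7.57 and 7.56 in SJSA-1 with 50 nM, against 8.12, 8.31 and 8.08 with DMSO, and 7.44, 7.32 and 7.57 in U2-OS with 800 nM, against 7.0, 6.94 and 6.99 with DMSO. TBK1, a kinase of innate immune signalling, fell by 0.72 in SJSA-1 and rose by 0.39 in U2-OS, and ZNF292, a zinc finger factor, fell by 0.87 in SJSA-1 and rose by 0.40 in U2-OS. The others were NFKB1, MLLT10, TGFBR3, SMC5, SASS6 and RPUSD4, whose falls in SJSA-1 lay between 0.41 and 0.54 and whose rises in U2-OS lay between 0.39 and 0.64. Under scaling to the poly-A controls, the rises of all 10 genes in U2-OS would lie below 0. The DMSO level of all 10 was higher in SJSA-1, from 7.46 against 7.42 in U2-OS for MLLT10 to 8.17 against 6.98 for CHD7. Opposite changes thus started from unlike levels in most of them.

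MDM2, the ubiquitin ligase that degrades p53, lies in the 12q13-15 region that SJSA-1 is known to carry in many copies. It had 10.42, 10.19 and 10.51 in SJSA-1 with 50 nM, against 10.70, 10.74 and 10.55 with DMSO, and 7.81, 7.61 and 7.82 in U2-OS with 800 nM, against 7.15, 7.21 and 7.17 with DMSO. MDM2 fell by 0.29 in SJSA-1 and rose by 0.57 in U2-OS, a difference of -0.86 with an adjusted p of 1.14e-05 by limma. CDK4, of the same region, fell (-0.23 in SJSA-1 and -0.45 in U2-OS). Of 20 active genes of the region 13 fell and 1 rose in SJSA-1 (65% and 5%, against 38.6% and 27% over all genes), and 9 fell and 6 rose in U2-OS (45% and 30%, against 36.9% and 28%). The difference was lower for 9 and higher for 2 (45% and 10%, against 23.5% and 13.7%). HMGA2, an architectural chromatin protein, fell (-2.22 in SJSA-1 and -1.65 in U2-OS), METTL1, a tRNA methyltransferase, fell (-1.37 in SJSA-1 and -0.61 in U2-OS), and LEMD3, an inhibitor of SMAD signalling at the nuclear envelope, fell (-1.07 in SJSA-1 and -0.21 in U2-OS).

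Of 20 active p53 targets 7 rose and 7 fell in SJSA-1 (35% each, against 27% and 38.6% over all genes), and 10 rose and 5 fell in U2-OS (50% and 25%, against 28% and 36.9%). The difference was lower for 7 and higher for 0 (35% lower, against 23.5%). PLK2, a kinase of centriole duplication, rose by 0.94 in SJSA-1 and 1.27 in U2-OS, ZMAT3 by 0.42 in SJSA-1 and 0.93 in U2-OS, and XPC, which recognises damaged DNA, fell (-1.14 in SJSA-1 and -0.97 in U2-OS). Among genes of apoptosis, FADD, the adaptor of death receptors, fell (-1.83 in SJSA-1 and -1.28 in U2-OS), and BCL2L2, which guards against apoptosis, fell (-0.72 in SJSA-1 and -1.27 in U2-OS).

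In centrosomal, mitotic and chromatin genes the lower differences outnumbered the higher ones. Of 15 active centrosomal genes 14 fell in SJSA-1 (93.3%, against 38.6% over all genes) and 8 in U2-OS (53.3%, against 36.9%), with median changes of -0.70 in SJSA-1 and -0.19 in U2-OS, and the difference was lower for 9 (60%, against 23.5%) and higher for 1. CEP350, which anchors microtubules, fell (-1.88 in SJSA-1 and -0.99 in U2-OS). CEP152, which recruits the kinase PLK4 to centrioles, fell by 0.20 in SJSA-1 and rose by 0.81 in U2-OS, and PLK4 itself fell by 0.81 in SJSA-1 and changed by 0.00 in U2-OS. CEP78 rose in both lines, by 1.06 in SJSA-1 and 1.29 in U2-OS. Of 49 mitotic genes 29 fell and 6 rose in SJSA-1 (59.2% and 12.2%, against 38.6% and 27% over all genes). In U2-OS 25 fell and 16 rose (51% and 32.7%, against 36.9% and 28%). There were 22 lower and 3 higher differences (44.9% and 6.12%, against 23.5% and 13.7%). NDC80, of the kinetochore, fell (-1.52 in SJSA-1 and -0.71 in U2-OS), and ASPM, of the spindle poles, fell (-1.25 in SJSA-1 and -1.20 in U2-OS), while FBXO5, an inhibitor of the anaphase-promoting complex, changed by -0.31 in SJSA-1, which did not pass, and rose by 0.43 in U2-OS. Of 42 chromatin writers and remodellers 25 fell and 10 rose in SJSA-1 (59.5% and 23.8%, against 38.6% and 27% over all genes). In U2-OS 14 fell and 15 rose (33.3% and 35.7%, against 36.9% and 28%). There were 19 lower and 0 higher differences (45.2% lower, against 23.5%). ARID2, of the PBAF remodelling complex, fell (-1.59 in SJSA-1 and -0.40 in U2-OS), and the remodeller CHD9 fell (-2.18 in SJSA-1 and -1.22 in U2-OS). EZH2, which methylates histone H3, rose by 0.93 in SJSA-1 and 0.75 in U2-OS. The median differences of these 3 lists, -0.38, -0.20 and -0.18, would lie above 0 under scaling to the poly-A controls.

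Genes of the ribosome moved little in either line, and those of respiration differed little between the lines. Of the ribosomal genes 2 rose and 1 fell in SJSA-1 (3.7% and 1.85%, against 27% and 38.6% over all genes). In U2-OS 1 rose and 2 fell (1.85% and 3.7%, against 28% and 36.9%). All 54 active genes of the cytoplasmic ribosome had a difference bounded within 1.5-fold, against 82% over all genes. By limma 0 of these differences passed, against 37.2% over all genes. Of 66 genes of the respiratory chain and ATP synthase, 24 rose and 1 fell in SJSA-1. These were 36.4% and 1.52%, against 27% and 38.6% over all genes. In U2-OS 10 rose and 12 fell (15.2% and 18.2%, against 28% and 36.9%). All 66 had a bounded difference (against 82% over all genes), and 10 passed, each of them higher in SJSA-1 (15.2%, against 13.7% higher over all genes). NDUFA8, of complex I, changed by -0.09 in SJSA-1, which did not pass, and fell by 0.35 in U2-OS, and ATP5MC2, of the ATP synthase ring, changed by 0.10 in SJSA-1, which did not pass, and fell by 0.20 in U2-OS. The median difference of respiratory genes, 0.08, would lie below 0 under scaling to the hybridization controls.

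**Figure D4:**
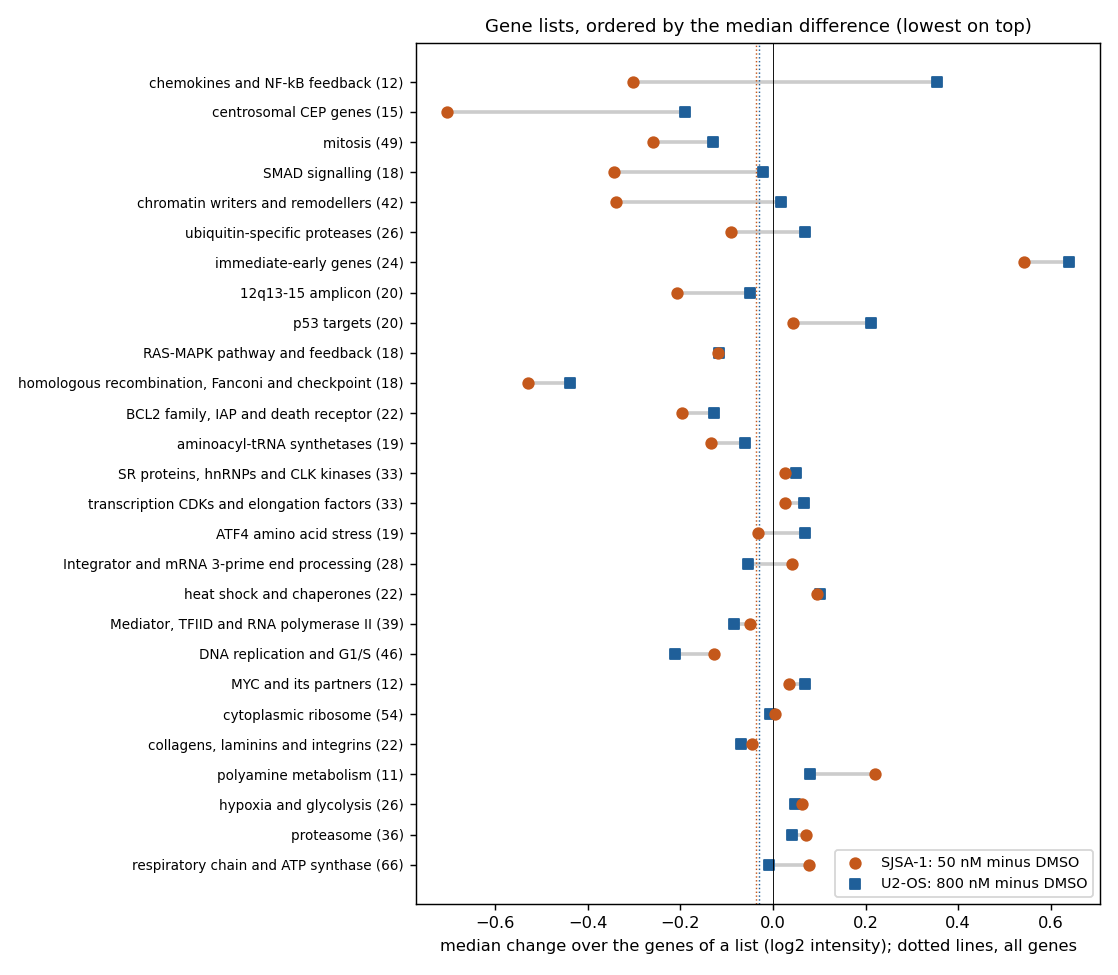
Median change over the active genes of each list (number in brackets) on the log2 scale, in SJSA-1 at 50 nM (orange circles) and U2-OS at 800 nM (blue squares), ordered by the median difference, with dotted lines at the medians of all genes. Under scaling to the poly-A controls all orange points would move left by 0.51 and all blue points by 0.94.

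Of 7 candidate genes linked to super-enhancers that the study names, 6 were active in both lines. The study chose them with these samples in hand, so their direction is not independent evidence. CEP55, of the midbody in cytokinesis, fell (-0.94 in SJSA-1 and -0.56 in U2-OS). LACTB, a mitochondrial protease, fell (-1.53 in SJSA-1 and -1.26 in U2-OS), while its other active probe set gave -0.12 in SJSA-1 and -0.14 in U2-OS. SRSF3, a splicing factor, fell (-0.31 in SJSA-1 and -0.24 in U2-OS), and neither fall passed as the mean of all its probe sets. DNAJB12, a chaperone of the endoplasmic reticulum, fell (-0.13 in SJSA-1 and -0.26 in U2-OS). The fall of DNAJB12 in SJSA-1 had an adjusted p of 0.0424 by limma and did not pass without any 1 of SJSA-1 50 nM replicates 1, 2 and 3 or DMSO replicates 1 and 3, with adjusted p-values of 0.131, 0.0587, 0.0588, 0.0838 and 0.172. FOXP1, a forkhead factor, fell (-0.86 in SJSA-1 and -0.50 in U2-OS), and its 4 active probe sets gave differences between -0.50 and 0.56. TCF7L2, a transcription factor of Wnt signalling, changed by 0.16 in SJSA-1 and 0.02 in U2-OS, and neither change passed. All 6 had a difference bounded within 1.5-fold, against 82% over all genes. The difference was lower for 3 of the 6, against 23.5% of all genes. STAT3, a transcription factor of cytokine signalling that the study names only as an example from other cancers, rose by 0.33 in SJSA-1 and 0.28 in U2-OS.

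Gene length separated the lines at the matched doses. The genes were divided into 5 bins of equal size by their span on the genome, with medians of 5.2, 14.7, 29.5, 54.6 and 134 kb. From the shortest to the longest bin, the median change in SJSA-1 was 0.00, 0.01, 0.00, -0.08 and -0.17, and in U2-OS it was -0.07, -0.01, 0.03, -0.02 and -0.06. Lower differences made up 11.2% of the shortest bin and 34.6% of the longest, and higher differences made up 20.1% and 9.74%. The Spearman correlation of span with the change was -0.17 in SJSA-1, 0.00 in U2-OS and -0.24 for the difference, across 5851 genes that are not independent replicates. On single arrays the median change of the longest bin minus that of the shortest was -0.14, -0.20 and -0.18 in SJSA-1, against 0.00, -0.01 and 0.04 in U2-OS. Genes that passed as falls in SJSA-1 alone had a median span of 46.8 kb and those in U2-OS alone 21.5 kb. Among genes of opposite direction the median span was 42.9 kb for those lower in SJSA-1 and 9.99 kb for those higher in SJSA-1.

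**Figure D5:**
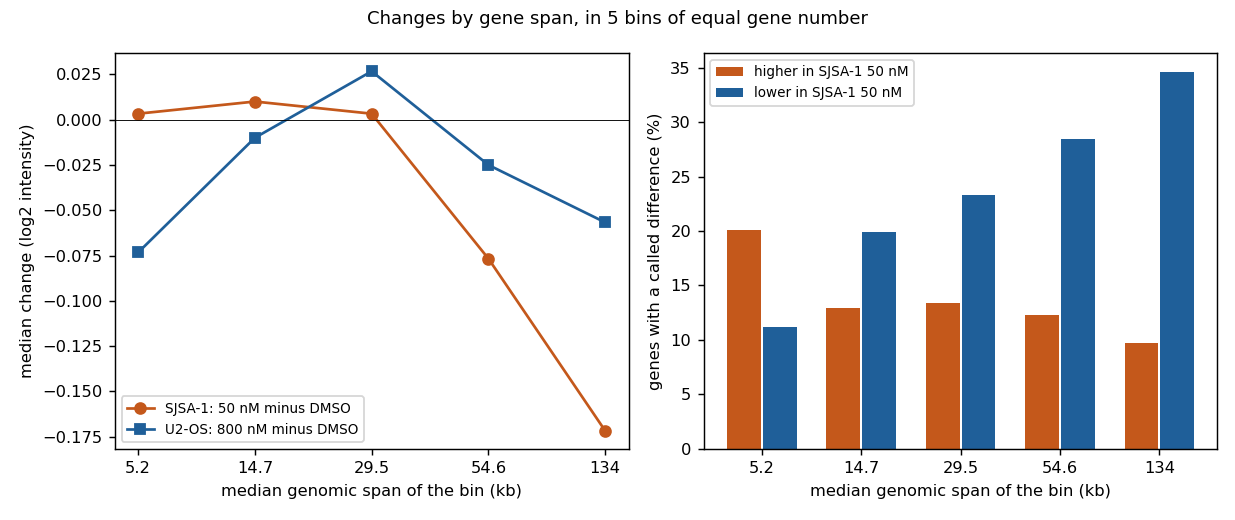
Median log2 change with THZ531 in each of 5 bins of genes by genomic span, in SJSA-1 at 50 nM and U2-OS at 800 nM (left), and percent of genes whose difference was higher or lower in SJSA-1 (right), with the median span of the bin in kb on the x axis. Lower differences made up 11.2% of the shortest and 34.6% of the longest bin.

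Several genes have more than 1 active probe set, which can read different transcripts of a gene. Among called differences with several, all probe sets had 1 sign in 924 of 1041 genes (88.8%). Among shared falls all probe sets fell in both lines in 577 of 674 genes (85.6%), and among shared rises all rose in 484 of 560 genes (86.4%).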

How the data were processed

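Total RNA from cells treated for 6 h was hybridized to Affymetrix PrimeView arrays, 3 per group. The authors deposited linear intensities per probe set, which the methods describe as RMA values after quantile normalization. MAS5 and RMA are both named in the submitters' notes, with no role for either. Array medians ran from 30.1 to 33.6, and the number of arrays limits the precision. Of 49372 probe sets, 44994 carried 1 gene symbol, 1832 several and 2546 none, and only the first kind was used. Where a gene had several, the one brightest on average across all arrays stood for it.

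The log2 intensities of all 24 arrays were fitted with 1 mean for each of the 8 groups in limma 3.58.1 (R 4.3.3), with Benjamini-Hochberg adjustment over the 5851 genes active in both lines and calls at an adjusted p of 0.05. The code was tested on simulated data. A difference was called bounded where its 95% interval lay within 1.5-fold. Gene spans and promoters came from RefSeq (GRCh38.p14). The members and lists were chosen with earlier results of these data known. The text draws on the largest differences and shared changes with arrays that did not overlap, and on the largest opposite changes, with no such requirement. It also draws on up to 3 members of each list by difference and 3 by shared change. A fixed list of kinases, AP-1 and repair genes and genes of the study was added. Alternatives covered the offset before the log, the filter, the probe set, the scaling, the fit, the methods' t-test, a 2-fold minimum, a replicate block and leaving out each array.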

Additional observations from a re-analysis of the deposited data

Results flagged for a closer look

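The 10 clearest genes of opposite direction are given here because the test of the difference between the lines passed. Their mean levels moved down in SJSA-1 with 50 nM and up in U2-OS with 800 nM. Since they were ranked on these changes, the values are a description. Each of these genes had a higher DMSO level in SJSA-1 than in U2-OS. The difference between the SJSA-1 and U2-OS changes was -1.27 for ZNF292, -1.15 for NFKB1, -1.12 for TBK1, -1.08 for CHD7 and -1.08 for NR3C1. It was -0.96 for MLLT10, -0.87 for SMC5, -0.85 for SASS6, -0.84 for TGFBR3 and -0.81 for RPUSD4. The other active probe set of NR3C1 changed by 0.25 in SJSA-1 and 0.67 in U2-OS, so that its opposite direction rests on 1 of 2 probe sets.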

How the results depend on the processing

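The 801 higher and 1375 lower differences, 1608 shared falls, 1026 shared rises, 150 and 75 opposite changes (lower and higher in SJSA-1) and 4799 bounded differences stayed within 1.5-fold under the alternatives not given here. With no filter there were 1424 higher and 2067 lower differences, 2654 shared falls and 14184 bounded differences. With DMSO means above 200 there were 803 lower differences, 892 shared falls and 80 opposite changes lower in SJSA-1. With the mean of all probe sets there were 781, 908 and 83 of these, and the length gap of -0.18 became -0.13. With each probe set on its own there were 1647 higher and 2278 lower differences, 2696 shared falls, 2297 shared rises, 235 and 146 opposite changes and 9518 bounded differences. With a 2-fold minimum there were 6 higher and 39 lower differences, 163 shared falls, 26 shared rises and 0 and 0 opposite changes. The cause of these shifts was not tested, beyond the number of genes or probe sets tested.

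Scaling to the added controls moved most counts. The median change of all genes in SJSA-1 and U2-OS became -0.54 and -0.97 with the poly-A controls, -0.26 and 0.03 with the hybridization controls, and -0.42 and -0.54 with both. With the poly-A controls there were 1322 higher and 39 lower differences, 4532 shared falls, 14 shared rises, 1 and 17 opposite changes and 767 bounded differences. With the hybridization controls there were 59 higher and 3337 lower differences, 400 shared rises, and 441 and 1 opposite changes. With both there were 437 higher and 382 lower differences, 4096 shared falls, 89 shared rises, and 17 and 12 opposite changes.

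Single genes turned with the scale, and the calls of others were lost. With the poly-A controls, more differences kept their sign but no longer passed by limma. MDM2 had -0.43 (adjusted p 0.122), MCM10 -0.46 (adjusted p 0.0996) and NFKBIA -0.51 (adjusted p 0.0727). The same held for CHEK1, EXO1, NBN, ELL2, CTR9, SCAF8, PLK4, NDC80, FBXO5, CEP350, CHD9, KLF6, FOSL2 and ZMAT3. It also held for FADD, HMGA2, METTL1, LEMD3, NFKBIZ, MLLT10, TGFBR3, SMC5, SASS6 and RPUSD4. With the poly-A controls the difference became 0.0751 for CDK7, 0.0085 for CDK9 and 0.0518 for CEP55. The SJSA-1 change became -0.11 for KLF6, -0.27 for GFM1, -0.0644 for CCNK, -0.0444 for JUN, -0.18 for STAT3 and -0.0911 for ZMAT3. The U2-OS change became -0.56 for CCNK, -0.17 for HEXIM1, -0.0663 for JUNB, -0.44 for JUN, -0.66 for STAT3, -0.19 for EZH2 and -0.0063 for ZMAT3. The U2-OS rises of BRD2, IER5, KLF6, MED26, MSL2, OSMR, RBM14 and TRIB1 stayed above 0 but no longer passed. With both controls the SJSA-1 change became -0.15 for GFM1 and -0.0547 for STAT3, and the U2-OS change -0.13 for CCNK, -0.0076 for JUN and -0.23 for STAT3. With the hybridization controls the difference became -0.22 for PHLDA2, -0.23 for PRKAA1, -0.0644 for CDK4 and -0.0211 for NDUFA8. With 16 added before the log, the difference of INTS6 became -0.0101.

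Leaving out 1 array gave 608 to 819 higher and 1174 to 1321 lower differences, 1508 to 1599 shared falls, 940 to 1041 shared rises, 122 to 144 and 40 to 76 opposite changes, and 4651 to 4807 bounded differences. Opposite changes higher in SJSA-1 fell to 40 without SJSA-1 50 nM replicate 2, 49 without SJSA-1 DMSO replicate 1, 42 without U2-OS 800 nM replicate 2 and 45 without U2-OS DMSO replicate 3. Same-numbered arrays of a line did not deviate together (r of -0.42 to -0.04), so the numbers gave no sign of a pairing. In both lines, treated arrays 1, 2 and 3 deviated most like DMSO arrays 3, 1 and 2. With 3 arrays a group, this check cannot exclude a pairing or a batch. With the methods' t-test in each line there were 1546 shared falls and 1029 shared rises at p under 0.05, and 1407 and 881 after Benjamini-Hochberg adjustment. A fit with the replicate number as a block gave 726 higher and 1294 lower differences. With 3 arrays a group and a median half-interval of 0.18, smaller differences were not detectable for most genes.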
